A study of Rattus norvegicus with 17 samples.

Results

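Cyp11a1, Fdx1 and Fdxr, the 3 genes of the electron chain that cleaves the side chain of cholesterol, were followed in fetal rat testis after exposure in utero to dipentyl phthalate (DPeP). They were taken by their symbols in the deposited count table, each identifier once, and are 3 of its 30560 genes. Cyp11a1 encodes P450scc, the enzyme of the inner mitochondrial membrane that turns cholesterol into pregnenolone, the first committed step of all steroid hormone synthesis. Its electrons start on NADPH, are taken up by the flavoprotein ferredoxin reductase (Fdxr) and are carried to the enzyme by the small iron-sulfur protein ferredoxin 1 (Fdx1). In the fetal testis this reaction takes place in Leydig cells, which make the testosterone that masculinizes the fetus, and phthalate esters such as DPeP, a plasticizer, are known to lower that output. Fdx1 and Fdxr also serve mitochondrial reactions outside steroid synthesis, and Fdxr is present in many cell types.

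PolyA-selected RNA was sequenced from testes of wild type Sprague Dawley fetuses, collected on gestational day 21, in 17 libraries. The dams were gavaged from gestational day 17 to day 21 with corn oil, 2.5 mL/kg, that carried no DPeP (vehicle, n = 3 libraries) or DPeP at 1 (n = 3), 11 (n = 3), 100 (n = 3) or 300 mg/kg/d (n = 5). A library was made from 1 testis, or from 2 pooled testes of littermates. The labels do not say whether different libraries of a group had different dams, so p-values measure the spread between these libraries.

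Libraries held between 14282274 and 20323488 reads assigned to genes. In 2 libraries at 100 mg/kg/d, replicates 05 and 18, 9.05% and 7.76% of the counts came from the mitochondrial genome and 6.89% and 6.21% from ribosomal protein genes, more than in any of the other 15 libraries (at most 6.16% and 4.90%). The values at 100 mg/kg/d are therefore also given without them. Whole testis was sequenced, and in such RNA fewer cells of a type and less RNA per cell cannot be told apart. Markers of testis cells were present in every library, with summed levels in vehicle of 6551 to 7767 CPM (the counts of a gene scaled to a common library size) for 12 fetal Leydig cell genes and 2245 to 2809 CPM for 12 Sertoli cell genes. The 7 adrenal cortex genes summed to 24.5 to 33.8 CPM in vehicle, mostly from Mrap (13.9 ± 1.61 CPM, SD, n = 3) and Cyp11b1 (11.9 ± 2.98). At 300 mg/kg/d the sum was 6.87 to 9.63 CPM, of which Mrap (1.39 ± 0.395 CPM, SD, n = 5) and Cyp11b1 (0.583 ± 0.407) were the smaller part. The defining markers Cyp21a1 and Mc2r were at or near 0, with at most 0.169 and 0.346 CPM in any library.

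In the gene models of the count files (build mRatBN7.2), Cyp11a1 (ENSRNOG00000008074) lies on the plus strand of chromosome 8, from 58404669 to 58434338, with 10 exon blocks of 1968 bases in all. Fdx1 (ENSRNOG00000012123) lies on the minus strand of the same chromosome, from 52268536 to 52287414, with 4 exon blocks of 1068 bases. Fdxr (ENSRNOG00000058497) lies on the minus strand of chromosome 10, from 100507865 to 100516658, with 12 exon blocks of 1911 bases. No other listed gene overlapped these spans, so the unstated strand setting of the counting leaves no listed neighbour whose reads could be mixed with theirs.

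The 250 bases before the start of each gene are shown because the 3 genes move together over the doses and yet by different factors. They come from RefSeq on the build GRCr8, where all 3 genes were matched by symbol. Whether RefSeq starts each gene at the same exon as the count files was not checked. The positions are chr8:67318415-67318664 on the plus strand for Cyp11a1, chr8:61183646-61183895 on the minus strand for Fdx1 and chr10:101015536-101015785 on the minus strand for Fdxr. Each reads 5′ to 3′ and ends at the last base before the start. Capitals mark AGGTCA, the half-site that nuclear receptors such as NR5A1 (SF-1), a regulator of steroidogenic genes, can bind.
Cyp11a1: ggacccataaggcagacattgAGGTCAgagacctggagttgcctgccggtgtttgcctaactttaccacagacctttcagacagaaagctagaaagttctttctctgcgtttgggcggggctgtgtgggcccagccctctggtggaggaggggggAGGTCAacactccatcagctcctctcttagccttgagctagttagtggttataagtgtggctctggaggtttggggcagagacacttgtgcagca
Fdx1: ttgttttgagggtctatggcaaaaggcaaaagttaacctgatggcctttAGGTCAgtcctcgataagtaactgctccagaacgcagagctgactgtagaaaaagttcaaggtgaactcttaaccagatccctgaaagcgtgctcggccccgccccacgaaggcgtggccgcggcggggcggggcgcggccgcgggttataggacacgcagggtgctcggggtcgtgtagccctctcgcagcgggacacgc
Fdxr: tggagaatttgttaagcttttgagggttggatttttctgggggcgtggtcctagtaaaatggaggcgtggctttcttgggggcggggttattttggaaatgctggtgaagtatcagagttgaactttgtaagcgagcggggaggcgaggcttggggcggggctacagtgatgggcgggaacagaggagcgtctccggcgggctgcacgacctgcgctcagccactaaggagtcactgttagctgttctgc
AGGTCA, searched on both strands, stood in the Cyp11a1 window at 229 to 224 and at 95 to 90 bases before the start and in the Fdx1 window at 201 to 196 bases. The Fdxr window held none. By comparison, 14.1% of 33469 RefSeq promoter windows of the same length held AGGTCA. The GC box GGGCGG, bound by SP1, occurred once in Cyp11a1, at 2 places in Fdx1 and at 3 places in Fdxr, and 30.5% of all windows held it. The longer NR5A1 site AAGGTCA was in none of the 3 windows and in 3.99% of all, every one of which counts above as well. The core of the cAMP response element, TGACG, was also in none of the 3 and in 18.2% of all. The TATA box was searched as TATAAA, which 12.9% of all windows held and these 3 did not. A match describes the letters only. Because only these exact letters were searched, the lack of a match does not show that a window holds no similar site.

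Cyp11a1, the enzyme itself, was at a high level in unexposed testis and stood at 30.6% of its vehicle mean at the top dose. The library sizes behind CPM were adjusted by edgeR's TMM method. The vehicle libraries had 1078, 618 and 1051 CPM in replicates 01, 08 and 15, a mean of 916 ± 258 (SD, n = 3). Replicate 08 was the low one, and its value set the spread of the group. At 1 mg/kg/d the values were 1073, 955 and 848 CPM (959 ± 113, SD, n = 3), all inside the vehicle range. At 11 mg/kg/d they were 775, 633 and 601 CPM (670 ± 92.6, SD, n = 3), and 1 of the 3 was below the lowest vehicle library. Replicates 05, 18 and 19 at 100 mg/kg/d had 408, 380 and 429 CPM (406 ± 24.8, SD, n = 3). All 3 were below every vehicle library and close together, including the pair with the raised mitochondrial share. At 300 mg/kg/d replicates 06, 07, 13, 14 and 20 had 304, 303, 287, 292 and 215 CPM (280 ± 37.0, SD, n = 5), all below every library at 100 mg/kg/d.

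Fdx1, the electron carrier, had a lower group mean at each higher dose. Its vehicle values were 153, 165 and 211 CPM in replicates 01, 08 and 15 (176 ± 30.6, SD, n = 3). At 1 mg/kg/d replicates 02, 09 and 10 had 173, 145 and 98.0 CPM (139 ± 37.8, SD, n = 3), so the group overlapped vehicle, with 2 of 3 libraries below the lowest vehicle value. At 11 mg/kg/d the values were 122, 122 and 96.4 CPM (113 ± 14.7, SD, n = 3), all below vehicle. Fdx1 was the only member whose libraries at 11 mg/kg/d did not overlap vehicle, a separation that 6.94% of all genes tested showed in the lower direction. The values at 100 mg/kg/d were 73.3, 94.4 and 69.1 CPM (78.9 ± 13.6, SD, n = 3), and at 300 mg/kg/d they were 56.1, 55.1, 47.5, 65.7 and 38.2 CPM (52.5 ± 10.3, SD, n = 5). The highest library at 300 mg/kg/d was just below the lowest at 100 mg/kg/d.

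Fdxr, the reductase, stayed inside the vehicle range up to 11 mg/kg/d and was below it at 100 and 300 mg/kg/d, with the lowest group mean at 100 mg/kg/d, where replicate 19 alone was level with the mean at 300 mg/kg/d. The vehicle values were 155, 127 and 180 CPM (154 ± 26.6, SD, n = 3), and at 1 mg/kg/d they were 160, 170 and 159 CPM (163 ± 6.27, SD, n = 3). At 11 mg/kg/d they were 150, 136 and 132 CPM (139 ± 9.61, SD, n = 3). Replicates 05, 18 and 19 at 100 mg/kg/d had 82.6, 75.2 and 96.0 CPM (84.6 ± 10.5, SD, n = 3), all below vehicle, with the lowest values in the pair with the raised mitochondrial share. At 300 mg/kg/d the values were 95.4, 88.9, 108, 107 and 81.4 CPM (96.2 ± 11.5, SD, n = 5). They were all below vehicle and overlapped those at 100 mg/kg/d.

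**Figure D1:**
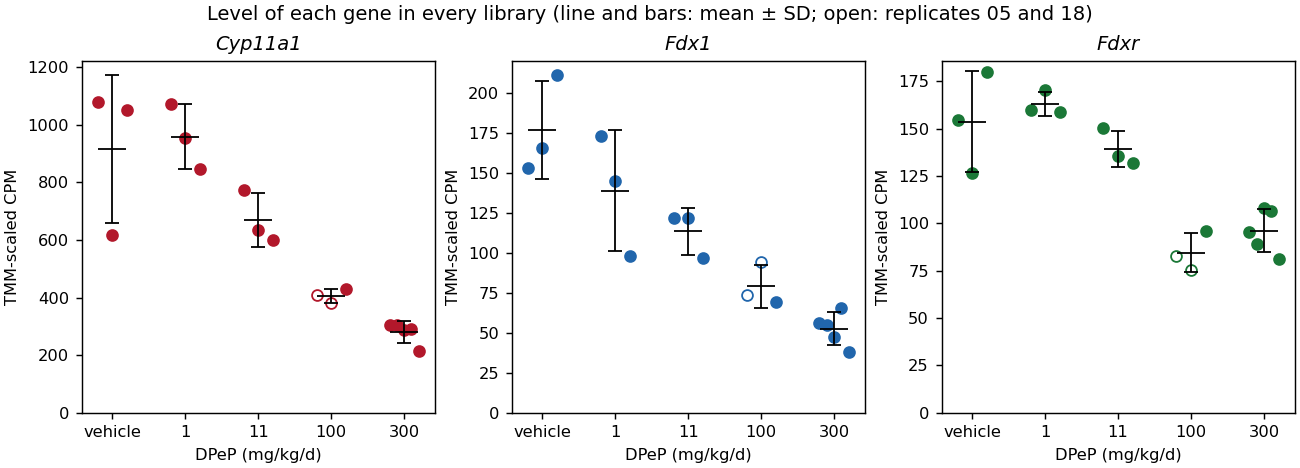
TMM-scaled CPM (y axis, from 0, a separate scale for each gene) of Cyp11a1, Fdx1 and Fdxr in each of 17 libraries against the dose of DPeP (x axis, in mg/kg/d); points are libraries, the line and bars are the mean and SD, and open points are replicates 05 and 18 at 100 mg/kg/d. Cyp11a1 and Fdx1 step down to 280 and 52.5 CPM at 300 mg/kg/d, whereas Fdxr stands at 84.6 CPM at 100 and 96.2 CPM at 300 mg/kg/d.

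Between the genes, levels were compared in TPM, computed from the deposited counts and gene lengths, in which counts are divided by length and scaled to a common total. In vehicle the enzyme led with 1085 ± 311 TPM, followed by its carrier with 384 ± 53.6 TPM and the reductase with 187 ± 29.4 TPM (SD, n = 3). In rank by TPM, Cyp11a1 was 101st, Fdx1 293rd and Fdxr 738th of 30560 genes in vehicle, and they were 314th, 1295th and 1249th at 300 mg/kg/d. The TPM ratio of Cyp11a1 to Fdx1 was 2.85 ± 0.905 in vehicle (SD, n = 3), 3.88 ± 0.714 at 1, 3.22 ± 0.347 at 11 and 2.86 ± 0.610 at 100 mg/kg/d (n = 3 each) and 2.93 ± 0.322 at 300 mg/kg/d (n = 5). The ratio of Fdx1 to Fdxr was 2.07 ± 0.281 in vehicle, 1.52 ± 0.415 at 1, 1.45 ± 0.152 at 11, 1.71 ± 0.490 at 100 and 0.977 ± 0.154 at 300 mg/kg/d. It did not follow the order of the doses, and at the top dose carrier and reductase had nearly the same level. The ratio of Cyp11a1 to Fdxr was 5.72 ± 1.02 in vehicle, 5.71 ± 0.706 at 1, 4.65 ± 0.314 at 11, 4.68 ± 0.296 at 100 and 2.84 ± 0.341 at 300 mg/kg/d.

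All 3 genes fell at 300 mg/kg/d against vehicle, and the 5 libraries lay below all 3 vehicle libraries for each of them. Tests used edgeR's quasi-likelihood test in 1 fit of all 17 libraries, with Benjamini-Hochberg adjustment over 18005 genes and a threshold of 0.05. Cyp11a1 had a log2 change of −1.71 with an SE of 0.151 and was 3.27-fold lower (adjusted p = 7.44e-07). Fdx1, at −1.75 with an SE of 0.172, was 3.36-fold lower (adjusted p = 3.00e-06), and Fdxr, at −0.68 with an SE of 0.114, was 1.60-fold lower (adjusted p = 0.00160). Over all genes tested, 1.41% fell and 0.994% rose by the same rule, 6.48% had all 5 libraries below vehicle, and the median change was 0.010. Within the 2 sample codes of the titles that hold both vehicle and 300 mg/kg/d, whose meaning the labels do not state, the differences in log2 CPM were of the same sign. Against vehicle replicate 15, 2 libraries gave −1.83 for Cyp11a1, −2.04 for Fdx1 and −0.87 for Fdxr, and against vehicle replicate 01, 3 libraries gave −2.01, −1.55 and −0.72.

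The fall was already present at 100 mg/kg/d. The log2 change in edgeR's test was −1.17 ± 0.174 (SE) for Cyp11a1 (adjusted p = 0.00118), −1.16 ± 0.198 for Fdx1 (adjusted p = 0.00345) and −0.86 ± 0.131 for Fdxr (adjusted p = 0.00154). Here 1.03% of all genes tested fell and 0.494% rose, and 7.89% had all 3 libraries below vehicle, as all 3 genes of the chain did. With only replicate 19 left at this dose, a single library whose spread is taken from the other groups, the changes were −1.11 for Cyp11a1 (edgeR adjusted p = 0.0727), -1.37 for Fdx1 (adjusted p = 0.0443) and −0.70 for Fdxr (adjusted p = 0.0948). In a fit of the 6 libraries of these 2 groups alone, the adjusted p was 0.0574 for Cyp11a1 and 0.0860 for Fdxr. Within the sample codes the differences in log2 CPM were −1.33, −1.57 and −1.01 for Cyp11a1, Fdx1 and Fdxr against vehicle replicate 15 (2 libraries) and −1.50, −0.70 and −1.04 against replicate 01 (1 library).

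At the lower doses none of the 3 genes passed the test. At 11 mg/kg/d against vehicle the log2 changes were −0.45 for Cyp11a1, −0.64 for Fdx1 and −0.14 for Fdxr (edgeR adjusted p = 0.992, 0.918 and 0.992). The unadjusted p was 0.0165 for Cyp11a1 and 0.00405 for Fdx1. No gene of all those tested was called at this dose by edgeR (0%). An unadjusted edgeR p under 0.05 was found for 633 genes, only 3.52% of those tested. DESeq2 called 26 genes and limma voom 2, none of them in the chain. At 1 mg/kg/d the log2 changes were 0.067, −0.35 and 0.085 (edgeR adjusted p = 0.941, 0.864 and 0.899), and again 0% of genes were called. Here 891 genes, 4.95% of those tested, had an unadjusted edgeR p under 0.05, and DESeq2 and limma voom called 0 genes. The sign of the difference at 1 mg/kg/d turned for Cyp11a1 and Fdxr when vehicle replicate 08 was left out, to −0.15 and −0.037.

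In group means the order from highest to lowest was 1, vehicle, 11, 100 and 300 mg/kg/d for Cyp11a1, vehicle, 1, 11, 100 and 300 for Fdx1, and 1, vehicle, 11, 300 and 100 for Fdxr. Of the steps between neighbouring doses, edgeR's test called only that from 11 to 100 mg/kg/d, for Cyp11a1 and Fdxr. From 1 to 11 mg/kg/d the log2 changes of −0.52 for Cyp11a1, −0.29 for Fdx1 and −0.23 for Fdxr did not pass the test (edgeR adjusted p = 1.00 for each, 0.00555% of all genes called). From 11 to 100 mg/kg/d Cyp11a1 fell by 0.72 (adjusted p = 0.0355) and Fdxr fell by 0.72 (adjusted p = 0.0171), whereas the change of Fdx1 was −0.52 (adjusted p = 0.104). At this step 2.15% of all genes fell, and 9.06% had all 3 libraries at 100 below all 3 at 11 mg/kg/d, as the 3 genes had. These 2 calls at the step were lost with only replicate 19 at 100 mg/kg/d, where Cyp11a1 changed by −0.65 (adjusted p = 0.701) and Fdxr by −0.55 (adjusted p = 0.638), and without single libraries (replicates 05 or 18 at 100, 03 or 17 at 11 mg/kg/d, and for Cyp11a1 also 16). From 100 to 300 mg/kg/d the changes were −0.53 for Cyp11a1 (adjusted p = 0.0899), −0.59 for Fdx1 (adjusted p = 0.0911) and 0.19 for Fdxr (adjusted p = 0.331), with 0.00555% of all genes called. With only replicate 19 at 100 mg/kg/d the change of Fdxr at this step was 0.010 (edgeR adjusted p = 0.996), from −0.70 to −0.69 against vehicle. The 5 libraries at 300 mg/kg/d lay below the 3 at 100 mg/kg/d for Cyp11a1 and Fdx1, which 2.6% of all genes showed, and overlapped them for Fdxr. Over all doses, the level changed per doubling of dose + 1 by −0.22 for Cyp11a1, −0.20 for Fdx1 and −0.10 for Fdxr on the log2 scale (edgeR adjusted p = 4.65e-08, 5.52e-07 and 9.59e-05), a slope that was called lower in 2.98% of all genes.

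**Figure D2:**
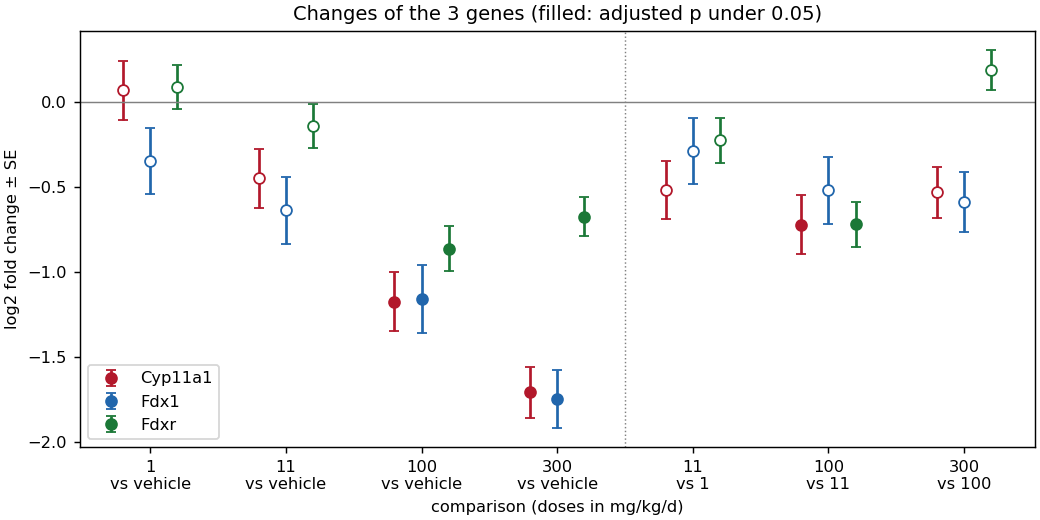
Log2 fold change (y axis, with SE bars) of Cyp11a1, Fdx1 and Fdxr in 4 comparisons with vehicle and 3 steps between neighbouring doses (x axis, doses in mg/kg/d); filled points have an adjusted p under 0.05 in edgeR's quasi-likelihood test. At 100 mg/kg/d the 3 genes lie between −1.17 and −0.86, and at 300 mg/kg/d Fdxr, at −0.68, lies apart from Cyp11a1 and Fdx1, at −1.71 and −1.75.

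Whether the 3 genes fell by different factors was tested on the ratio of their counts within each library, which does not depend on library size. The reductase gained on the enzyme at the top dose. Per 100 counts of Cyp11a1, the vehicle libraries had 14.3, 20.5 and 17.1 counts of Fdxr (17.3 ± 3.09, SD, n = 3) and the libraries at 300 mg/kg/d had 31.4, 29.3, 37.7, 36.6 and 37.8 (34.6 ± 3.94, SD, n = 5). The groups did not overlap, and the log2 ratio was higher by 1.00, 2.01-fold (two-sided exact permutation test over 56 splits, p = 0.0179, the smallest it allows, adjusted p = 0.0402 over 9 comparisons). Fdxr gained on Fdx1 as well, from 87.7 ± 12.3 counts per 100 of Fdx1 in vehicle (SD, n = 3) to 187 ± 31.3 at 300 mg/kg/d (SD, n = 5), a log2 difference of 1.09 with no overlap (exact permutation test, adjusted p = 0.0402). With any 1 library left out the differences were 0.88 to 1.13 and 0.99 to 1.19, and neither passed the threshold (exact permutation test, adjusted p = 0.0643 to 0.107). Fewer libraries allow fewer splits and raise the smallest p the test can give, so these lost calls do not show dependence on 1 library. The mean ratio of Fdxr to Fdx1 was also higher than in vehicle at the lowest doses, at which the ratios were not tested. Per 100 counts of Fdx1 there were 124 ± 35.3 counts of Fdxr at 1 mg/kg/d (range 92.6 to 162) and 124 ± 12.9 at 11 mg/kg/d (range 111 to 137, SD, n = 3 each). The 3 libraries at 11 mg/kg/d lay above all 3 vehicle libraries (76.8 to 101), and the highest library at 1 mg/kg/d, replicate 10, lay inside the range at 300 mg/kg/d (161 to 228). Fdxr per 100 counts of Cyp11a1 was 17.2 ± 2.01 at 1 and 20.9 ± 1.37 at 11 mg/kg/d, below every library at 300 mg/kg/d. The proportion of carrier to enzyme did not differ beyond the spread: Fdx1 per 100 counts of Cyp11a1 was 20.3 ± 6.26 in vehicle (range 14.2 to 26.7) and 18.7 ± 2.26 at 300 mg/kg/d (range 16.5 to 22.5), a log2 difference of −0.082 (exact permutation test, p = 0.732, adjusted p = 0.924).

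No such shift passed a test at 100 mg/kg/d. Per 100 counts of Cyp11a1 there were 20.8 ± 1.36 counts of Fdxr and 19.6 ± 4.61 of Fdx1, and per 100 counts of Fdx1 there were 110 ± 29.7 of Fdxr (SD, n = 3 each). The log2 differences from vehicle were 0.28 for Fdxr to Cyp11a1, 0.30 for Fdxr to Fdx1 and −0.027 for Fdx1 to Cyp11a1 (exact permutation test, p = 0.3, 0.3 and 1.0), in a design of 3 against 3 that cannot go below 0.1. Between 100 and 300 mg/kg/d the 2 ratios with Fdxr rose by 0.73 over Cyp11a1 and by 0.78 over Fdx1, both with no overlap (exact permutation test, adjusted p = 0.0402 each), while Fdx1 to Cyp11a1 differed by −0.055 (adjusted p = 0.924). Against replicate 19 alone these steps were 0.62, 0.41 and 0.21, with no p under the threshold possible. Within the sample codes, Fdxr to Cyp11a1 was higher at 300 mg/kg/d than in vehicle by 0.96 (replicate 15) and 1.29 (replicate 01), and Fdxr to Fdx1 by 1.17 and 0.84. Fdx1 to Cyp11a1 differed in sign between the codes, −0.21 and 0.46.

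**Figure D3:**
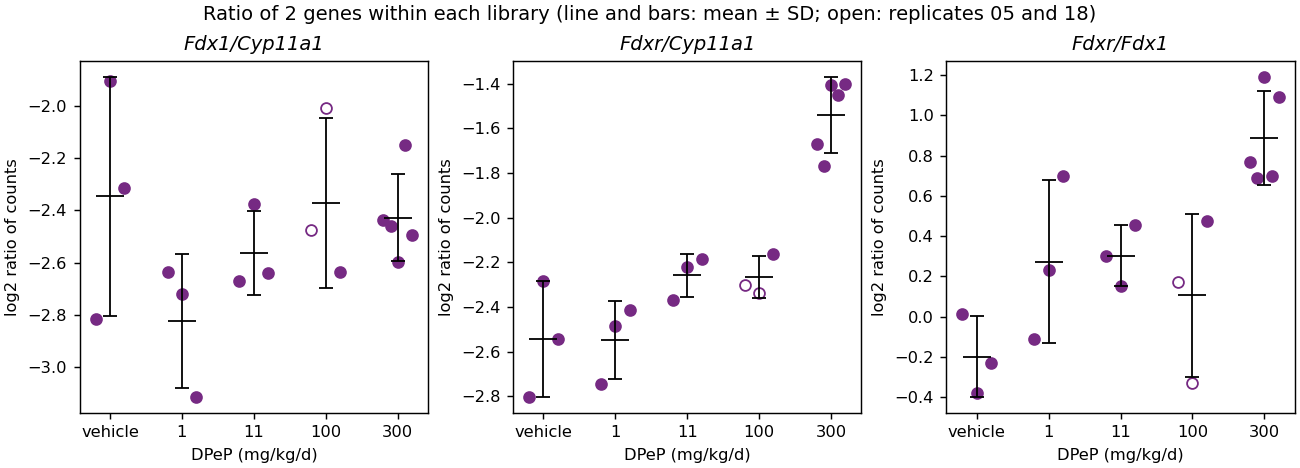
Log2 ratio of counts of 2 genes within each library (y axis) against the dose of DPeP (x axis, in mg/kg/d) for Fdx1/Cyp11a1, Fdxr/Cyp11a1 and Fdxr/Fdx1; points are libraries, the line and bars are the mean and SD, and open points are replicates 05 and 18. Both ratios with Fdxr at 300 mg/kg/d lie above all libraries at vehicle and 100 mg/kg/d, by a mean of 1.00 and 1.09 over vehicle, and Fdx1/Cyp11a1 overlaps. Fdxr/Fdx1 at 11 mg/kg/d also lies above vehicle, and its highest library at 1 mg/kg/d lies inside the range at 300 mg/kg/d.

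Libraries of 1 dose group also differed, and the 3 genes were compared in these deviations from the group mean of log2 CPM over 17 libraries. Cyp11a1 and Fdxr deviated together, with Pearson r = 0.731 (permutation within dose groups, p = 0.00790, adjusted p = 0.0237 over 3 pairs) and Spearman rho = 0.664 (permutation p = 0.0134, adjusted p = 0.0403). That relation rested on vehicle replicate 08 and replicate 20 at 300 mg/kg/d, both low in Cyp11a1 and in Fdxr for their group: without them r was 0.481 (permutation p = 0.110). With the sample code as a term r was 0.643 (permutation, adjusted p = 0.0370). Cyp11a1 and Fdx1 gave r = 0.476 (permutation p = 0.0785, adjusted p = 0.118) and rho = 0.429, and r = 0.377 without the same 2 libraries. Fdx1 and Fdxr gave r = 0.291 (permutation p = 0.285) and rho = 0.225, and r = 0.0936 without replicate 10 at 1 and replicate 20 at 300 mg/kg/d.

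**Figure D4:**
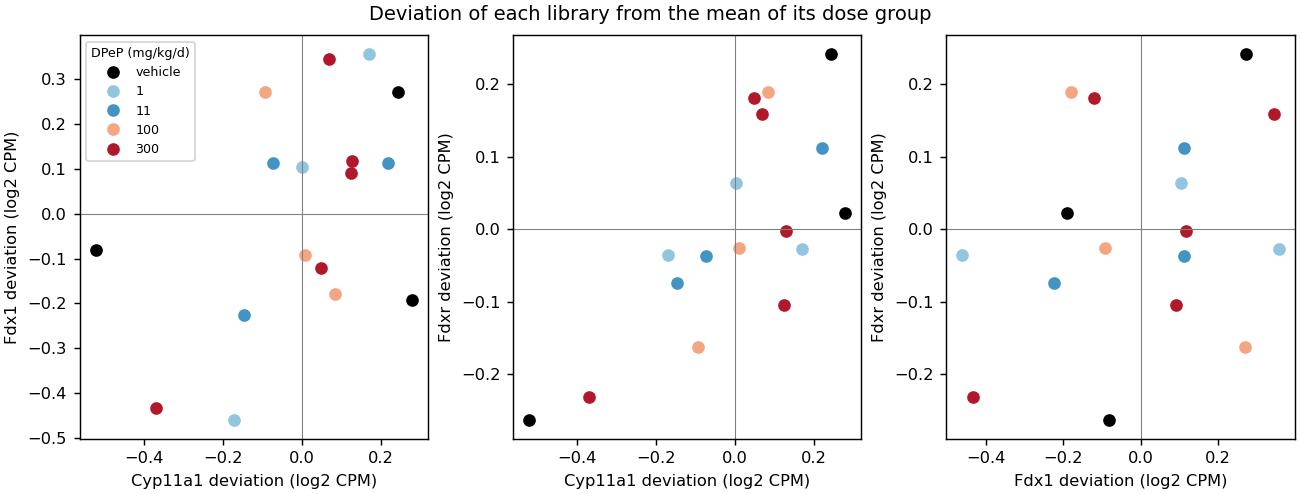
Deviation of each of 17 libraries from the mean log2 CPM of its dose group, for Cyp11a1 against Fdx1, Cyp11a1 against Fdxr and Fdx1 against Fdxr (both axes in log2 CPM); points are libraries, coloured by dose in mg/kg/d. Cyp11a1 and Fdxr, with r = 0.731, have their lowest points in vehicle replicate 08 and replicate 20 at 300 mg/kg/d.

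Across all 17 libraries, doses included, the genes most like each member in log2 CPM were listed by Pearson r among 14475 genes, as a description in which all points share the dose groups. Cyp11a1 was most like Mrap, a partner protein of the melanocortin receptors (r = 0.973), followed by Aox1 (0.961), an aldehyde oxidase, Aldh1l1 (0.959), a folate enzyme, Stc2 (0.956), a stanniocalcin, and Scarb1 (0.954), the HDL receptor. Fdx1 was most like Star (r = 0.967), the protein that moves cholesterol into mitochondria, then Cyp17a1 (0.957), the enzyme that makes androgen precursors, Cyp11b1 (0.942), Mrap (0.940) and Rab33a (0.935). Fdxr was most like Mrpl37 (r = 0.968), a protein of the mitochondrial ribosome, Acad10 (0.961), Flvcr2 (0.959), Nceh1 (0.955), a cholesteryl ester hydrolase, and Smpd1 (0.952), the acid sphingomyelinase. The chain's own genes were not each other's nearest: Fdx1 was 26th and Fdxr 52nd in the list of Cyp11a1 (r = 0.925 and 0.892), Cyp11a1 was 10th and Fdxr 113th (r = 0.788) in that of Fdx1, and Cyp11a1 was 67th and Fdx1 396th in that of Fdxr. In deviations within dose groups, the highest mean r with the 3 genes belonged to Lemd2 (0.718), Fastk (0.676), Ngp (0.661), Slc22a17 (0.660) and Nrip2 (0.656), none of which was called at 100 or 300 mg/kg/d.

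Among the genes that bring cholesterol to P450scc, 2 of 11 fell and none rose at 300 mg/kg/d, where 1.41% of all genes tested fell. The list median was −0.25 beside 0.010 for all genes tested. The fallen genes were Star, from 632 ± 73.7 to 148 ± 41.1 CPM (log2 change −2.09, edgeR adjusted p = 7.33e-07), and Scarb1, from 1017 ± 201 to 267 ± 47.8 CPM (−1.93, adjusted p = 7.44e-07). Vdac1, the outer membrane channel, fell with them at 100 mg/kg/d (3 of 11, beside 1.03% of all genes tested). With the fit made without replicates 05 and 18, 5 of the 11 fell at 300 and 2 at 100 mg/kg/d, where 2.63% and 0.318% of all genes tested in that fit fell. Of the enzymes after pregnenolone, 3 of 11 tested fell at 300 mg/kg/d, beside 1.41% of all genes. These were Cyp17a1, from 1504 ± 191 to 347 ± 83.4 CPM (−2.12, edgeR adjusted p = 4.85e-07), Hsd3b3 (−1.27, adjusted p = 0.00375) and Hsd3b1 (−0.86, adjusted p = 0.0368). Hsd3b1 and Hsd3b3 belong to a family of near-identical genes between which reads can be split, so their values are uncertain. At 100 mg/kg/d Cyp17a1 fell, and without replicates 05 and 18 Hsd3b3 did as well (−1.22, edgeR adjusted p = 0.0311). The list median was −0.43 at 300 and 0.12 at 100 mg/kg/d.

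Electron donors of the microsomal P450 enzymes, the counterpart of Fdx1 and Fdxr in the endoplasmic reticulum, had 2 of 7 that fell at 300 mg/kg/d, beside 1.41% of all genes tested, with a list median of −0.30 beside 0.010. These were Por, the reductase that serves Cyp17a1 (148 ± 14.8 to 106 ± 8.56 CPM, log2 change −0.48, edgeR adjusted p = 0.0355), and Cyb5r1 (−0.54, adjusted p = 0.0464). Por also fell at 100 mg/kg/d (−0.57, adjusted p = 0.0374), a call that was lost without replicates 05 and 18. Of the other mitochondrial P450 enzymes, which take electrons from the same ferredoxin, 3 of 6 had enough counts to be tested, and 1 fell. This was Cyp11b1, the enzyme that makes corticosterone in the adrenal, from 11.9 ± 2.98 to 0.583 ± 0.407 CPM (−4.35, adjusted p = 7.44e-07), and its 3 vehicle libraries, at 8.54 to 14.1 CPM, did not overlap the 5 at 300 mg/kg/d, at 0.175 to 1.15 CPM. Rat Cyp11b genes are close copies between which reads can be split, so this value is uncertain.

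The supply lines of the chain's cofactors mostly did not pass the test, by which 1.41% of all genes fell at 300 and 1.03% at 100 mg/kg/d. In the list of heme synthesis, which also held the heme oxygenases Hmox1 and Hmox2, enzymes that break heme down, 1 of 14 genes fell. This was Alas1, the rate-limiting enzyme of the synthesis, from 208 ± 42.5 to 91.9 ± 17.2 CPM at 300 mg/kg/d (log2 change −1.18, edgeR adjusted p = 0.000163) and to 94.8 ± 22.2 CPM at 100 mg/kg/d (−1.13, adjusted p = 0.00250, not called without replicates 05 and 18). P450scc carries heme, and the median of this list was −0.043 at 300 mg/kg/d, with lower values for 12 of 14 beside 48.0% of all genes tested. At 100 mg/kg/d lower values were found for 7 of 14, beside 44.3% of all genes tested, and DESeq2 called 1 fallen and 1 risen. Of 18 genes that assemble iron-sulfur clusters, such as the one in Fdx1, edgeR called none at 300 or 100 mg/kg/d. Over the dose slope it called 2 of the 18 lower, Iba57 and Slc25a28, beside 2.98% of all genes tested. At 300 mg/kg/d 3 of the 18 had an unadjusted p under 0.05, DESeq2 called 1, voom 0 and the fit without replicates 05 and 18 called 2, and at 100 mg/kg/d the counts were 1, 0, 0 and 0. An unadjusted edgeR p under 0.05 was found for 13.3% of all genes tested at 300 and 19.2% at 100 mg/kg/d. In all, 17 of them had lower values at 300 mg/kg/d with a median of −0.16, and 6 at 100 mg/kg/d with a median of 0.11, while 48.0% and 44.3% of all genes tested were lower at these doses. At 300 mg/kg/d Hspa9, the mitochondrial chaperone, changed by −0.16 (adjusted p = 0.484) and Isca1 by −0.13 (adjusted p = 0.736). Fdx2, the second mitochondrial ferredoxin, which serves cluster assembly, was singled out after its values were seen: it had 21.0 ± 3.04 CPM in vehicle and 20.0 ± 1.89 CPM at 300 mg/kg/d (−0.073, adjusted p = 0.850). The list of lipoic acid and heme A partners of ferredoxin also held subunits of the enzyme complexes that carry lipoic acid. Of its 11 genes, 1 fell at 300 mg/kg/d, Pdhx, such a subunit in the pyruvate dehydrogenase complex (−0.41, edgeR adjusted p = 0.0166). Lower values were found for 10 of the 11, with a median of −0.11.

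Genes that make NADPH in mitochondria, the electron source of Fdxr, gave 0 of 9 calls at 300 mg/kg/d by edgeR, DESeq2 and voom, 0 at an unadjusted p under 0.05 (13.3% of all genes tested), and a median of −0.017. Idh2, the mitochondrial isocitrate dehydrogenase, changed by 0.13 (adjusted p = 0.656) and Nnt, the transhydrogenase, by −0.0043 (adjusted p = 0.994). At 100 mg/kg/d edgeR also called 0 of the 9, with a median of 0.12. However, 5 of the 9 had an unadjusted edgeR p under 0.05, beside 19.2% of all genes tested, and DESeq2 called 1 as fallen. Of 27 genes of the respiratory chain and of mitochondrial mass, 1 fell at 300 mg/kg/d, beside 1.41% of all genes tested. It was Sdhb, the iron-sulfur subunit of succinate dehydrogenase (187 ± 11.2 to 139 ± 7.45 CPM, log2 change −0.43, edgeR adjusted p = 0.0186). None fell at 100 mg/kg/d, where 4 had an unadjusted p under 0.05 and DESeq2 called 2. Over the dose slope edgeR called 3 of the 27 lower, Cs, Sdhb and Atp5f1b, beside 2.98% of all genes tested. Without replicates 05 and 18, 4 of the 27 fell at 300 mg/kg/d, in a fit that called 2.63% of all genes as fallen. The values were lower for 25 of the 27 at 300 mg/kg/d, with a median of −0.17, and for 16 at 100 mg/kg/d, with a median of −0.023, beside the 48.0% and 44.3% of all genes.

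A list of 23 genes held the luteinizing hormone (LH) signal and transcription factors linked to steroidogenic genes, not all of them activators. Of these, 3 fell and 1 rose at 300 mg/kg/d, beside 1.41% and 0.994% of all genes tested. Lhcgr, the LH receptor, went from 132 ± 36.1 to 32.7 ± 6.07 CPM (log2 change −2.02, edgeR adjusted p = 5.42e-06), Nr0b1 (DAX-1) fell by 0.96 (adjusted p = 0.000118) and Cebpb by 0.92 (adjusted p = 0.000235). Nr4a1 (NUR77) rose by 1.13 (adjusted p = 0.00110). Nr5a1 (SF-1), singled out after its values were seen, changed by −0.23 (adjusted p = 0.427), from 220 ± 25.2 to 188 ± 28.3 CPM. At 100 mg/kg/d 4 of 23 fell, Lhcgr, Nr0b1, Cebpb and Adcy9, an adenylyl cyclase, beside 1.03% of all genes tested, and none rose. Without replicates 05 and 18 these counts were 5 fallen and 1 risen at 300 and 1 and 1 at 100 mg/kg/d, in a fit in which 2.63% of all genes fell and 1.97% rose at 300 and 0.318% fell and 0.0689% rose at 100 mg/kg/d.

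**Figure D5:**
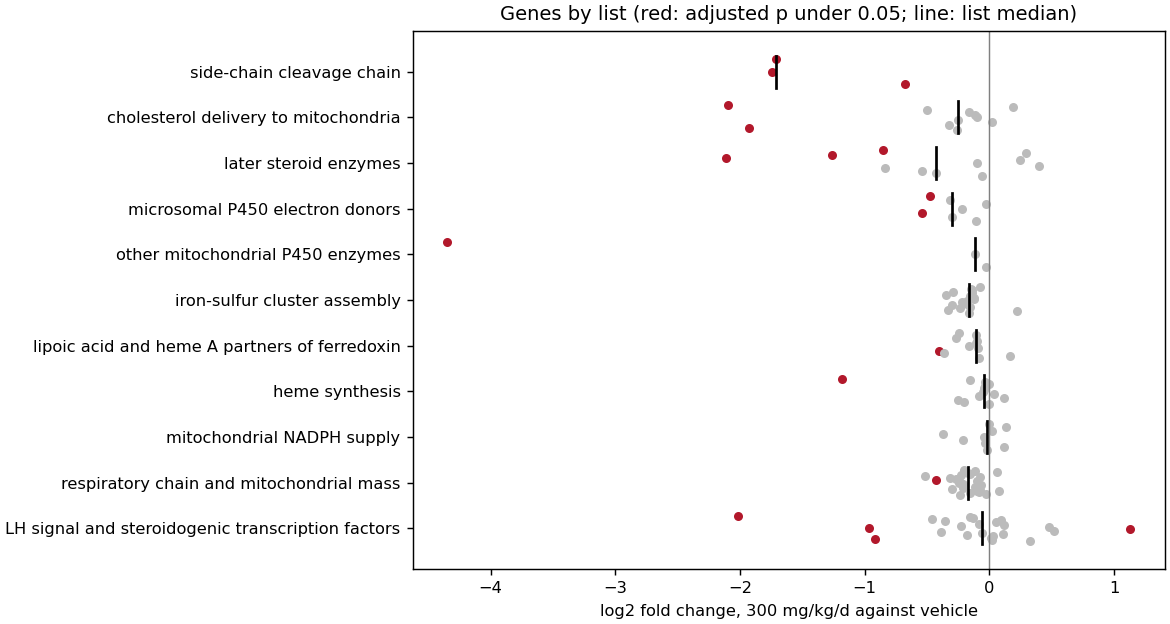
Log2 fold change at 300 mg/kg/d against vehicle (x axis) of the side-chain cleavage chain and of the tested genes of 10 gene lists (rows); each point is a gene, red where the adjusted p was under 0.05 in edgeR's test, and the black line is the median of the list. The called genes reach down to −4.35 for Cyp11b1, while the lists of iron-sulfur assembly and NADPH supply hold none and have medians of −0.16 and −0.017.

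Markers of the testis cell types moved as well at 300 mg/kg/d. Of all genes tested, 1.41% fell and 0.994% rose at this dose, and 1.03% fell and 0.494% rose at 100 mg/kg/d. Called or not, 48.0% of all genes tested had lower values at 300 mg/kg/d, and 6.48% had every library below every vehicle library. An unadjusted edgeR p under 0.05 was found for 13.3% at that dose. The summed fetal Leydig cell markers stood at 2308 to 3244 CPM, below the vehicle range of 6551 to 7767, with 7 of 12 fallen and 1 risen, and at 3369 to 4599 CPM at 100 mg/kg/d. The 4 Leydig markers that were not called at 300 mg/kg/d, named after their values were seen, were Pdgfa, Thbs2, Dlk1 and Nr5a1. The list shares Star, Scarb1, Cyp17a1, Hsd3b1, Lhcgr and Nr5a1 with the lists above. Its risen marker, Ptgds, is also on the Sertoli cell list. Sertoli cell markers summed to 3141 to 5347 CPM at 300 mg/kg/d, above the vehicle range of 2245 to 2809, with 5 of 12 risen, Ptgds among them. Germ cell markers summed to 850 to 1071 CPM at 100 mg/kg/d and 621 to 735 in vehicle, with 2 of 12 risen, and endothelial markers to 250 to 411 and 485 to 490 CPM, with 1 of 9 fallen. These 3 calls at 100 mg/kg/d were not made without replicates 05 and 18. In the other lists at 300 mg/kg/d, 1 of 12 germ cell markers (Nanos2) rose, 1 of 9 macrophage markers (Tyrobp) fell and 2 of 3 adrenal cortex genes with enough counts (Cyp11b1 and Mrap) fell. The remaining adrenal cortex gene, Akr1b7, had a higher value at 300 mg/kg/d, with an unadjusted edgeR p under 0.05, and was called as risen over the dose slope. No call was made by edgeR in the peritubular myoid (0 of 7), interstitial (0 of 8), endothelial (0 of 9) and red blood cell (0 of 6) lists, in which 3, 1, 2 and 0 genes had an unadjusted p under 0.05 and neither DESeq2 nor voom called a gene. The endothelial sum at 300 mg/kg/d was nevertheless below vehicle in every library, 372 to 425 CPM, with lower values for 9 of 9 genes and a median of −0.24. Macrophage markers likewise summed to 97.7 to 114 CPM, below the vehicle range of 119 to 136, with lower values for 7 of 9. Peritubular myoid and germ cell markers went the other way at 300 mg/kg/d. Lower values were found for 0 of 7 myoid (median 0.37) and 0 of 12 germ cell genes (median 0.29, 6 with an unadjusted edgeR p under 0.05). Their sums, 984 to 1471 and 656 to 825 CPM, overlapped vehicle (933 to 997 and 621 to 735). The part of these shifts in the changes of Cyp11a1, Fdx1 and Fdxr was not tested.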

How the data were processed

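The submitters' processing notes name Trimmomatic 0.36, STAR 2.5.2b, featureCounts of Subread 1.5.2 and the build mRatBN7.2. The deposited files give raw read counts per gene, per the file headers. The sources used here do not give the strand setting or the gene model release. TPM values deposited by the authors, treated as a score because repeated rows inflate the column totals, included spike-ins, so TPM was recomputed from genes alone. A normalized log2 table deposited by the authors served as an alternative. The 92 spike-in rows stayed out of library sizes and tests. Counts were tested with edgeR 4.0.16 (filterByExpr by dose group, TMM, quasi-likelihood test, 18005 genes) in R 4.3.3, with DESeq2 1.42.0 and limma 3.58.1 (voom) as alternatives. The scripts were tested on simulated data. Log2 CPM used a prior count of 2. Ratios were tested by exact permutation and deviations by 100000 permutations, in Python 3.11.15 with scipy 1.17.1. Genes likened to a member had a mean of at least 1 CPM. Of 213 genes on 10 pathway and 9 marker lists, 209 were matched by symbol. The genes named were the 3 members, the 5 most like each and their mean deviations, and from each pathway list up to 4 called at 300 mg/kg/d by smallest adjusted p or, where none was called, the 2 with the highest CPM. Members and lists were chosen with earlier results of these data known, so they are no independent support. Replicate numbers are not shared between groups.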

Additional observations from a re-analysis of the deposited data

Results flagged for a closer look

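Replicate 20 at 300 mg/kg/d lay apart from the other 4 libraries of its group in Cyp11a1, with 7.75 log2 CPM beside a nearest value of 8.17, a gap of 0.838 of the group's whole range. Chance sets apart about 1 in 20 groups by this measure. It was applied at this dose to every member and every ratio of 2 members, so 1 value set apart among them is less rare. Replicate 20 also had the lowest Fdx1 and Fdxr values of its group, 38.2 and 81.4 CPM, which did not stand apart in this way.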

How the results depend on the processing

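The calls of Cyp11a1, Fdx1 and Fdxr at 300 mg/kg/d and over the dose slope held in every alternative run, with log2 changes at 300 mg/kg/d from −1.93 to −1.57 (highest adjusted p = 1.30e-05), −1.90 to −1.60 (5.62e-05) and −0.80 to −0.55 (0.0289). At 100 mg/kg/d Fdx1 was called in all of them (highest adjusted p = 0.0443). Differences in the authors' deposited table of log2 values, an alternative chosen after seeing the data, were −1.68, −1.76 and −0.67 at 300 mg/kg/d. No paired analysis was possible because the groups share no replicate numbers, but the sample code, which groups do share, was fitted as a term. The cause of the following shifts was not tested.

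Without replicates 05 and 18, the changes at 100 mg/kg/d were −1.11 for Cyp11a1 and −0.70 for Fdxr, and from 11 mg/kg/d −0.65 and −0.55, none of which passed the threshold. The ratios from 100 to 300 mg/kg/d were then 0.62 for Fdxr/Cyp11a1, 0.41 for Fdxr/Fdx1 and 0.21 for Fdx1/Cyp11a1, Fdxr/Fdx1 at 100 mg/kg/d was 0.67 over vehicle, and r of Cyp11a1 and Fdxr was 0.750 (adjusted p = 0.0608). With only the compared groups in the fit, Cyp11a1 and Fdxr gave −1.18 and −0.87 at 100 mg/kg/d and −0.72 and −0.72 from 11 mg/kg/d, none called. DESeq2 called the step from 100 to 300 mg/kg/d for Cyp11a1 (−0.53, adjusted p = 0.0289) and Fdx1 (−0.58, adjusted p = 0.0340).

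Genes called numbered 0 at 1, 0 at 11, 274 at 100 and 432 at 300 mg/kg/d against vehicle, 1 from 1 to 11, 854 from 11 to 100, 1 from 100 to 300 mg/kg/d and 1030 over the slope. DESeq2 gave 26 at 11, 910 at 100, 746 at 300, 10 from 1 to 11, 2186 from 11 to 100 and 1145 from 100 to 300 mg/kg/d. With only the compared groups the counts were 3, 10, 45 and 835 against vehicle and 5, 2 and 0 for the steps. Without replicates 05 and 18 they were 19 at 11, 73 at 100, 869 at 300, 2, 0 and 0 for the steps and 1711 over the slope. The sample code as a term gave 1 at 11, 270 at 300, 163 from 11 to 100, 0 from 100 to 300 mg/kg/d and 586 over the slope. With no filter on low counts there were 1 at 1, 19 at 11, 6 from 1 to 11 and 225 from 100 to 300 mg/kg/d. Voom gave 2 at 11 and 4 from 1 to 11 mg/kg/d, and scaling by total counts 2 at 11 mg/kg/d.

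Leaving out 1 library at a time gave 0 to 2 genes at 11, 93 to 4250 at 100, 212 to 432 at 300 mg/kg/d, 0 to 1 from 1 to 11, 0 to 5886 from 11 to 100 and 0 to 5872 from 100 to 300 mg/kg/d, with the highest of the last 2 and the 4250 without replicate 19 at 100 mg/kg/d. At 1 mg/kg/d Cyp11a1 ranged from −0.15 to 0.20 and Fdxr from −0.037 to 0.21, turning sign without vehicle replicate 08 (Cyp11a1 also without replicate 02 at 1 mg/kg/d). From 11 to 100 mg/kg/d Cyp11a1 ranged from −0.80 to −0.61 and Fdxr from −0.82 to −0.65. From 100 to 300 mg/kg/d Cyp11a1 ranged from −0.57 to −0.45 and Fdx1 from −0.68 to −0.44, both called without replicate 19. The ratios ranged at 300 mg/kg/d from 0.88 to 1.13 (Fdxr/Cyp11a1), 0.99 to 1.19 (Fdxr/Fdx1) and −0.32 to 0.14 (Fdx1/Cyp11a1), and from 100 to 300 mg/kg/d from 0.69 to 0.78, 0.56 to 0.97 and −0.19 to 0.13. With 4 against 3 or 5 against 2 libraries, where fewer splits raise the smallest possible p, the adjusted p of the ratios with Fdxr was 0.0643 to 0.214 (exact permutation test).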
